A study of Mus musculus with 8 samples.

Results

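The synapsins and the membrane proteins of synaptic vesicles are followed here in the embryonic mouse utricle, a gravity-sensing organ of the inner ear. The set holds 10 genes of the 48823 gene identifiers counted: the synapsins Syn1, Syn2 and Syn3, the tetraspan vesicle proteins Syp, Syngr1 and Syngr3, the SV2 glycoproteins Sv2a, Sv2b and Sv2c, and the clathrin adaptor Snap91. They were matched by gene symbol. There were 4 libraries of genotype Rest(+/deltaExon4), in which 1 allele of Rest lacks exon 4, and 4 wild-type libraries. All came from E15.5 (embryonic day) and strain C57BL/6 per the labels, except that wild-type replicate 4 is labelled C57BL/7 and E15.6. The titles of the mutant libraries call them knockouts, while the genotype label gives 1 altered allele. Each library pooled the RNA of whole dissected utricles from 7 to 9 mice, and the labels give neither sex nor litter. The spread between libraries is therefore a spread between pools. Beside hair cells, such a pool can hold supporting cells, glia, blood cells and axons or cell bodies of ganglion neurons. Fewer cells of a type and less RNA per cell cannot be told apart.

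Synaptic vesicles store neurotransmitter at the nerve terminal, fuse with the plasma membrane when calcium enters, and are retrieved by endocytosis. Synapsins coat the outside of the vesicle and tether it in a reserve pool until phosphorylation releases it. Synaptophysin and the synaptogyrins span the vesicle membrane, and the SV2 proteins are transporter-like membrane glycoproteins. The hair cells of the inner ear release glutamate at ribbon synapses, which are known to lack synapsins, while the efferent nerve endings that contact them are conventional terminals. REST represses many neuronal genes through a DNA element called RE1, and Syn1 is a classical example of a gene that carries one.

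The promoters of Syn1 and Syp are shown because the first is the textbook RE1 gene of the set and the second is the single member that passed the test between genotypes. Both are 300 bases long, 250 before and 50 after the annotated start, from RefSeq on GRCm38.p6, printed 5′ to 3′ on the strand of the gene. The Syn1 window lies at chrX:20920869-20921168 on the minus strand and the Syp window at chrX:7638330-7638629 on the plus strand. Capitals mark the stretch of the Syn1 promoter that is closest to the core of the RE1 element.
Syn1: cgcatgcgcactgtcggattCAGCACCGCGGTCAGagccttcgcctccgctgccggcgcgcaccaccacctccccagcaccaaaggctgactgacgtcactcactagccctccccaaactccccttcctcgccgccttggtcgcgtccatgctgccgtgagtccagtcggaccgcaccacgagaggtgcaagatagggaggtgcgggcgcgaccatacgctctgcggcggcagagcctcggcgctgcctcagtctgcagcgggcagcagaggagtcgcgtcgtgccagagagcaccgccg
Syp: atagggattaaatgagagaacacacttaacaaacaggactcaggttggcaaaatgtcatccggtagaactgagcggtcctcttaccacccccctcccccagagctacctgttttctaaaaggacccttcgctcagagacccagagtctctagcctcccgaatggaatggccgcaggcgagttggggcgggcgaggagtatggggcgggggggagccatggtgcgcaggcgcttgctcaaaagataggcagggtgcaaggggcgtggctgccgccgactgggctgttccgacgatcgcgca
The core was searched on both strands as the left part CAGCACC, any 2 bases, and the right part GGACAG, which gives 13 letters to compare. The Syn1 stretch CAGCACCGCGGTCAG begins 230 bases before the start on the strand of the gene and departs from the core by A12T, counted from 1 at the first base of the left part. Windows were found for 8 of the 10 members (not Syn3 or Syngr3), 12 in all, and this was the single one with at most 1 or at most 2 mismatches. Of all 32851 RefSeq promoter windows of this length, 0.186% held the core with at most 1 mismatch and 1.92% with at most 2. The Syp window came no closer than 5 mismatches. The exact left part stood in windows of Syn1 and Sv2c and in 7.14% of all windows, and the exact right part in windows of Sv2b, Syngr1 and Snap91 and in 22.2% of all windows. These are matches of letters in a short window, and no binding was measured.

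Read pairs on genes numbered 22.4 to 24.6 M in mutant libraries and 20.4 to 23.8 M in wild-type libraries. Levels are given in CPM, counts in a library scaled to 1 M read pairs on genes, with TMM factors. The mutant libraries had reads on 23408 to 23989 genes, against 24265 to 24687 in wild-type libraries. They had 11.9% to 18.3% of read pairs outside genes, against 18.4% to 22.2% in wild-type libraries. Neither measure overlapped between the genotypes, and the part of either in the results was not tested. Rest itself was at 127 ± 3.20 CPM in mutant libraries, against 116 ± 7.35 CPM in wild-type libraries (SD, n = 4 per genotype). Every mutant library was above every wild-type library, as held for 2.98% of all genes tested. The log2 fold change of Rest was 0.12 ± 0.07 and did not pass (SE, edgeR adjusted p = 0.456). A count of the whole gene does not show whether exon 4 was deleted.

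Of the 10 members, 9 had enough counts to be tested, all but Syn1. Syp fell in the mutant utricles, no member rose, and 8 did not pass the test, the quasi-likelihood test of edgeR with p-values adjusted by Benjamini-Hochberg over all 16990 genes tested. The same count of members came from RLE factors and from library sizes without scaling factors. Over all genes tested, 1.02% were called lower and 0.147% higher in mutant libraries. Of the members tested, 5 had a negative log2 fold change (mutant over wild-type) and 4 a positive one. Their median was -0.03 on the log2 scale, and that of all genes tested was -0.0027. At an unadjusted p under 0.05, edgeR had 3 of the 9 members lower and 1 higher, where 7.92% of all genes tested were lower and 5.46% higher. DESeq2 at its adjusted p had 2 of 10 members lower and 0 higher, where it called 1.91% of 20321 genes lower and 0.768% higher.

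**Figure D1:**
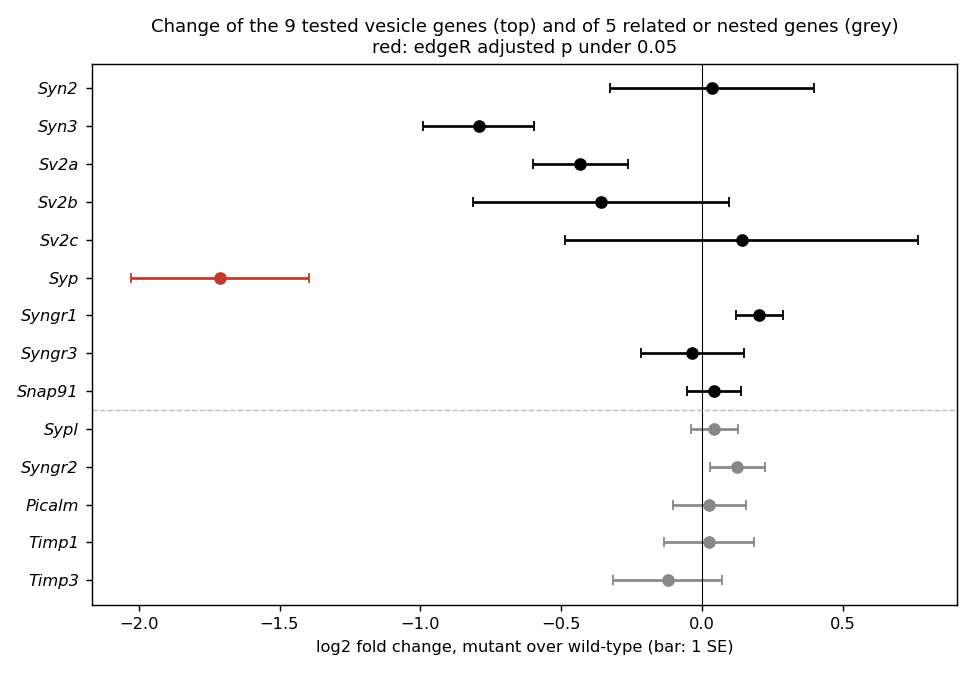
Log2 fold change, mutant over wild-type, of the 9 members tested and, in grey, of 5 related or nested genes (x axis), with bars of 1 SE, as fitted by edgeR. Syp (red) is the single gene shown that passed the test, at -1.71 ± 0.32, and the bars of Syn2, Sv2b, Sv2c, Syngr3 and Snap91 span 0.

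Synaptophysin, encoded by Syp (ENSMUSG00000031144, chrX:7638471-7653256, plus strand, GRCm38), is a tetraspan protein that makes up much of the vesicle membrane and is the common marker of presynaptic terminals. Its level was 3.04, 2.29, 2.30 and 1.39 CPM in mutant replicates 1 to 4, against 5.74, 4.66, 11.4 and 7.71 CPM in wild-type replicates 1 to 4. Every mutant library was below every wild-type library, as held for 4.89% of all genes tested, and wild-type replicate 3 was the highest of all. The means were 2.26 ± 0.676 CPM in mutant libraries, against 7.39 ± 2.98 CPM in wild-type libraries (SD, n = 4 per genotype), a level 3.28 times as high in wild-type libraries. The log2 fold change was -1.71 ± 0.32 (SE), with a 95% interval of -2.41 to -1.02 and an edgeR adjusted p of 0.0241. An exact two-sided permutation test of the CPM gave p = 0.0286, the smallest that 4 against 4 libraries allow.

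The lower level of Syp did not rest on wild-type replicate 3, but its call was close to the threshold. Without that library the wild-type mean was 6.04 ± 1.54 CPM (SD, n = 3), still above every mutant library, and the log2 fold change was -1.42 (edgeR adjusted p = 0.0706). Leaving out 1 library at a time kept the call in 3 of 8 fits and lost it in 5, at adjusted p of 0.0636 to 0.0788 by edgeR. The libraries whose removal lost it were mutant replicates 2, 3 and 4 and wild-type replicates 3 and 4. The log2 fold change stayed between -1.89 and -1.42 throughout.

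Reads of Syp were also partly set aside in the deposited counts. Exons of Syp share 875 bases with Gm14703, an antisense gene on the other strand, and a read pair there counts for neither gene when strand is not used. Of 1711 read pairs on Syp exons over the 8 libraries, 825 (48.2%) lay on such shared bases, counted as the excess of both strand columns over the unstranded one. With both strand columns summed, so that shared pairs count for both genes, Syp had 4.30 ± 0.644 CPM in mutant libraries, against 13.2 ± 3.95 CPM in wild-type libraries (SD, n = 4 per genotype). Its log2 fold change was then -1.61 ± 0.21 (SE, edgeR adjusted p = 0.0034), close to that of the pairs that are Syp's alone. Gm14703, named after its values were seen, had a log2 fold change of -0.79 ± 0.31 in the unstranded counts (SE, edgeR adjusted p = 0.314). With the strand columns summed it had 2.91 ± 0.299 CPM in mutant libraries, against 7.498 ± 1.04 CPM in wild-type libraries (SD, n = 4 per genotype), and passed at -1.36 ± 0.17 (SE, edgeR adjusted p = 0.0023). Because the library kit keeps no strand in these counts, which of the 2 genes a shared pair came from cannot be told apart.

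The closest relative of synaptophysin outside neurons, encoded by Sypl, is a broadly expressed tetraspan protein. It had 188 ± 15.3 CPM in mutant libraries, against 182 ± 13.8 CPM in wild-type libraries (SD, n = 4 per genotype), with a log2 fold change of 0.04 ± 0.08 (SE, edgeR adjusted p = 0.858). The log2 ratio of Syp to Sypl within a library was lower in mutant libraries by a difference of -1.69 ± 0.39 (SE). The exact two-sided permutation p was 0.0286, the smallest possible. Adjusted over the 10 pairs of related genes compared it was 0.286, the smallest that 1 pair alone at that limit can reach, so that the adjusted value could not pass.

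The synaptogyrins, tetraspan relatives of synaptophysin, did not pass the test in either direction. Syngr1 (chr15:80091334-80119501, plus strand) was at 28.7, 29.5, 30.1 and 27.9 CPM in mutant replicates 1 to 4, against 24.3, 24.4, 26.5 and 25.6 CPM in wild-type replicates 1 to 4. Every mutant library was above every wild-type library, a pattern shared by 2.98% of all genes tested. The means were 29.0 ± 0.974 CPM in mutant libraries, against 25.2 ± 1.05 CPM in wild-type libraries (SD, n = 4 per genotype), a ratio of 1.15. The log2 fold change was 0.20 ± 0.08 (SE, edgeR adjusted p = 0.329), and the exact permutation p was 0.0286, the smallest possible.

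Syngr3 (chr17:24685092-24689955, minus strand), the synaptogyrin known best from neurons, overlapped fully between the genotypes. It had 30.6, 24.0, 25.8 and 21.8 CPM in mutant replicates 1 to 4, against 25.3, 20.3, 37.0 and 22.1 CPM in wild-type replicates 1 to 4. Wild-type replicate 3 was again the highest, at 1.64 times the mean of the other wild-type libraries, as it was for Syp at 1.90 times. Its log2 fold change was -0.03 ± 0.18 (SE, edgeR adjusted p = 0.956), with a 95% interval of -0.44 to 0.37. Syngr2, the synaptogyrin found in many tissues, was at 37.7 ± 4.28 CPM in mutant libraries, against 34.5 ± 2.13 CPM in wild-type libraries (SD, n = 4 per genotype, edgeR adjusted p = 0.604).

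**Figure D2:**
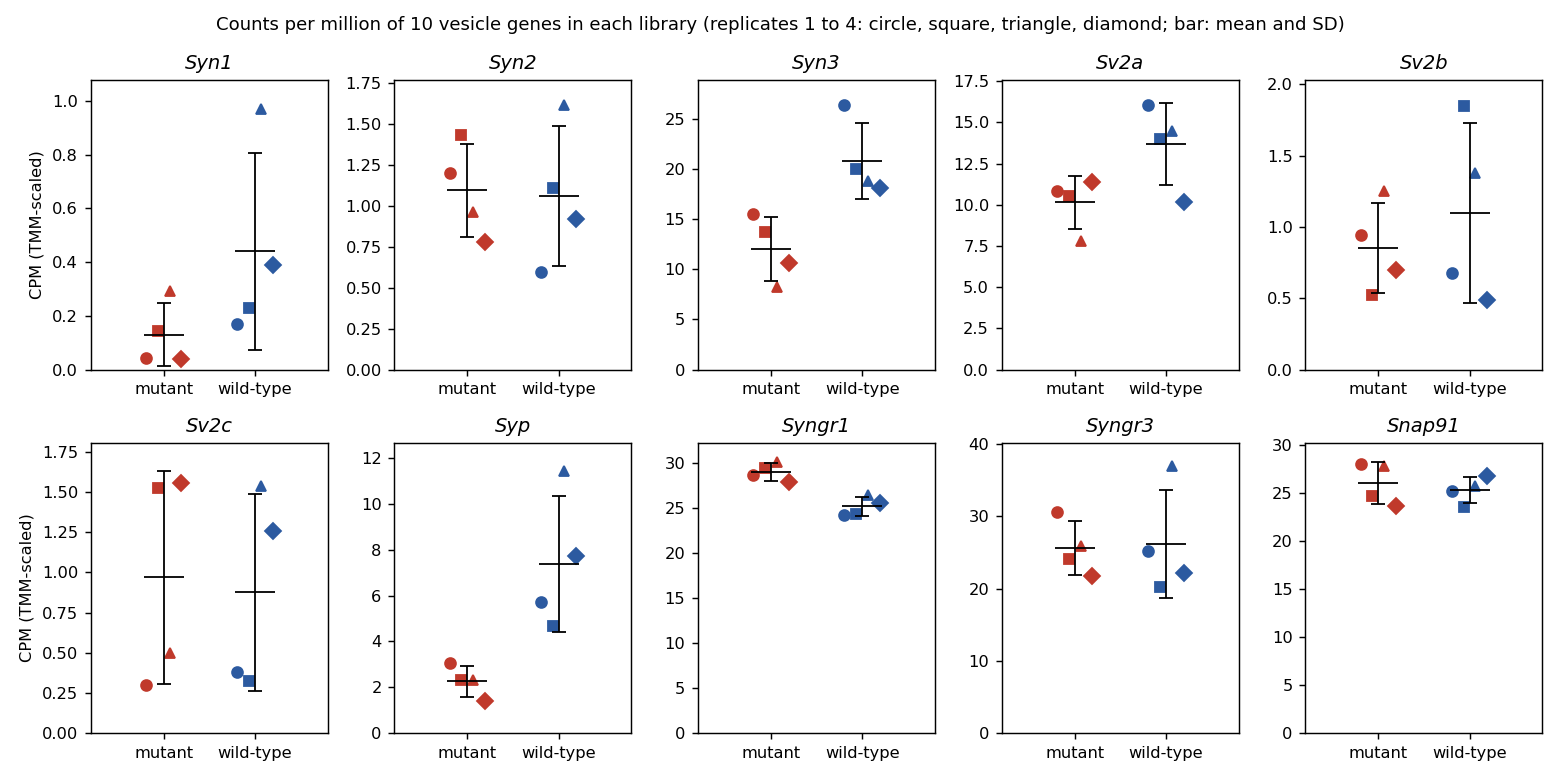
CPM (y axis, each panel from 0) of the 10 members in each library, with the 4 mutant libraries on the left and the 4 wild-type libraries on the right of each panel and bars for the mean and SD. For Syp and Syn3 every mutant library is below every wild-type library, for Syngr1 every mutant library is above, and the other panels overlap. Over all genes tested, 4.89% had every mutant library below and 2.98% every mutant library above.

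Most read pairs of the synapsins came from Syn3. Syn3 (chr10:86055125-86498896, minus strand), a synapsin expressed early in developing neurons, had 15.52, 13.7, 8.27 and 10.6 CPM in mutant replicates 1 to 4, against 26.4, 20.05, 18.8 and 18.1 CPM in wild-type replicates 1 to 4. Every mutant library was below every wild-type library, as held for 4.89% of all genes tested, with mutant replicate 3 the lowest and wild-type replicate 1 the highest. The means were 12.0 ± 3.22 CPM in mutant libraries, against 20.8 ± 3.78 CPM in wild-type libraries (SD, n = 4 per genotype). The log2 fold change was -0.79 ± 0.20 (SE), with an edgeR adjusted p of 0.102, which misses the threshold, and an exact permutation p of 0.0286, the smallest possible. DESeq2, run as an alternative, gave an adjusted p of 0.0071.

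The counts of Syn3 cover 31.4% of the read pairs on its exons. Timp3, a secreted inhibitor of matrix metalloproteinases, lies within Syn3 on the other strand, as Timp1 does in Syn1 and Timp4 in Syn2. A retained-intron transcript of Syn3, 1 of its 6 annotated transcripts, runs over Timp3 exons for 1733 bases. Of 9536 read pairs on Syn3 exons, 6537 (68.6%) were shared with the opposite strand. With both strand columns summed, Syn3 had 43.3 ± 4.47 CPM in mutant libraries, against 54.5 ± 11.8 CPM in wild-type libraries (SD, n = 4 per genotype). The genotypes then overlapped, and the log2 fold change was -0.33 ± 0.14 (SE, edgeR adjusted p = 0.359). Timp3 itself was at 25.04, 26.5, 42.2 and 26.7 CPM in mutant replicates 1 to 4, against 34.1, 39.8, 33.8 and 23.3 CPM in wild-type replicates 1 to 4. It overlapped between the genotypes (edgeR adjusted p = 0.833), and mutant replicate 3, lowest in Syn3, was highest in Timp3. The part of Timp3 reads in the Syn3 values was not tested.

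Syn1 (chrX:20860511-20921004, minus strand), the major synapsin of mature terminals, was near the limit of detection. It had 1, 3, 7 and 1 read pairs in mutant replicates 1 to 4, against 4, 5, 24 and 8 in wild-type replicates 1 to 4. The genotypes overlapped, and wild-type replicate 3 held more than any other library. In CPM the means were 0.130 ± 0.118 in mutant and 0.440 ± 0.365 in wild-type libraries (SD, n = 4 per genotype, exact permutation p = 0.114). Of 168 read pairs on its exons, 115 (68.5%) were shared with the opposite strand, where the gene Araf ends over the last 9 bases of Syn1. With the strand columns summed it had 0.547 ± 0.269 CPM in mutant libraries, against 1.17 ± 0.260 CPM in wild-type libraries (SD, n = 4 per genotype), a log2 fold change of -1.10 ± 0.38 that did not pass (SE, edgeR adjusted p = 0.258). Araf, a kinase gene named after its values were seen, was itself at 95.8 ± 7.02 CPM in mutant libraries, against 115 ± 6.77 CPM in wild-type libraries (edgeR adjusted p = 0.170), and its part in the summed value was not tested.

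Syn2 (chr6:115134902-115282006, plus strand), which acts with Syn1 in holding the reserve pool, was also low and did not separate the genotypes. It had 1.20, 1.43, 0.960 and 0.777 CPM in mutant replicates 1 to 4, against 0.595, 1.11, 1.62 and 0.921 CPM in wild-type replicates 1 to 4. The log2 fold change was 0.04 ± 0.36 (SE, edgeR adjusted p = 0.978), with a 95% interval of -0.76 to 0.83, a wide range of changes that these counts allow. The nested Timp1 was at 5.47 ± 0.673 CPM in mutant libraries, against 5.37 ± 0.446 CPM in wild-type libraries, while Timp4 was at 0.524 ± 0.323 CPM in mutant libraries, against 0.229 ± 0.338 CPM in wild-type ones (SD, n = 4 per genotype). Neither passed (edgeR adjusted p = 0.963 and 0.630).

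**Figure D3:**
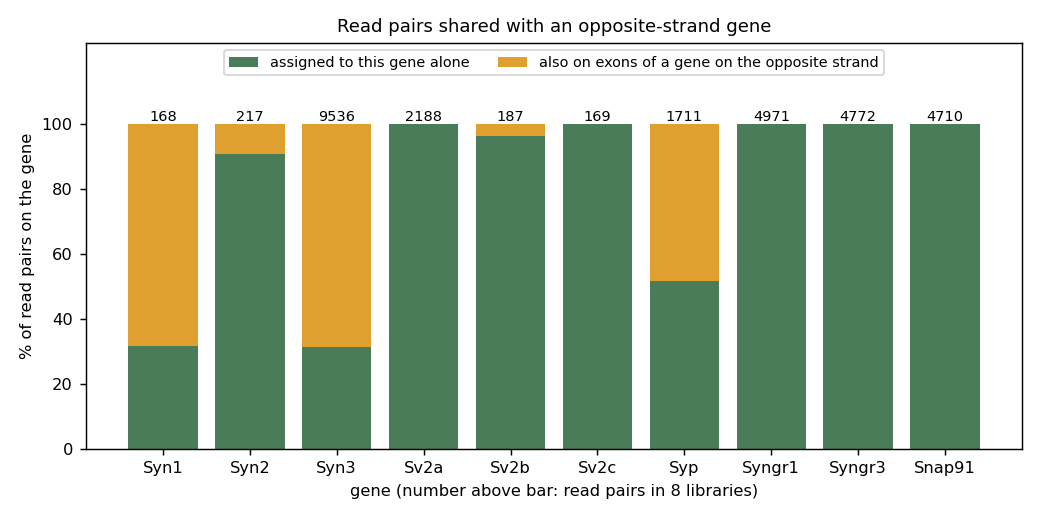
Read pairs on the exons of each member, summed over the 8 libraries, as the percentage counted for the member alone and the percentage shared with a gene on the opposite strand. The shared part is 68.5% for Syn1, 68.6% for Syn3 and 48.2% for Syp, and at most 9.22% for every other member.

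Sv2a (chr3:96181151-96195521, plus strand), the SV2 form found in most neurons and the binding site of the antiepileptic drug levetiracetam, was the most abundant of the SV2 genes per length of exon. It had 10.8, 10.5, 7.81 and 11.4 CPM in mutant replicates 1 to 4, against 16.1, 14.0, 14.5 and 10.2 CPM in wild-type replicates 1 to 4. Wild-type replicate 4 lay within the mutant range and the other wild-type libraries were above it. The means were 10.1 ± 1.60 CPM in mutant libraries, against 13.7 ± 2.496 CPM in wild-type libraries (SD, n = 4 per genotype). Its log2 fold change was -0.43 ± 0.17 (SE, edgeR adjusted p = 0.314, exact permutation p = 0.114).

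Sv2b (chr7:75114894-75309262, minus strand) and Sv2c (chr13:95954594-96132577, minus strand), the forms with a more restricted distribution in the brain, stayed near 1 CPM. Sv2b had 0.943, 0.526, 1.25 and 0.695 CPM in mutant replicates 1 to 4, against 0.680, 1.85, 1.37 and 0.485 CPM in wild-type replicates 1 to 4. Sv2c had 0.300, 1.53, 0.501 and 1.55 CPM in mutant replicates 1 to 4, against 0.383, 0.323, 1.54 and 1.26 CPM in wild-type replicates 1 to 4. Both overlapped widely, and their spread within a genotype was larger than the difference between genotypes. The 95% intervals of the log2 fold change ran from -1.36 to 0.65 for Sv2b and from -1.24 to 1.52 for Sv2c (edgeR adjusted p = 0.776 and 0.945).

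Snap91 (chr9:86765923-86880654, minus strand) encodes AP180, the neuronal adaptor that helps clathrin form a vesicle of the right size during retrieval. It had 28.1, 24.8, 27.8 and 23.7 CPM in mutant replicates 1 to 4, against 25.3, 23.5, 25.7 and 26.8 CPM in wild-type replicates 1 to 4. The genotypes overlapped, and the log2 fold change of 0.04 ± 0.10 (SE, edgeR adjusted p = 0.884) had the narrow 95% interval of -0.17 to 0.25. Its ubiquitous relative Picalm was at 159 ± 29.7 CPM in mutant libraries, against 156 ± 16.4 CPM in wild-type libraries (SD, n = 4 per genotype, edgeR adjusted p = 0.950).

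Levels of different genes can be compared only per length of exon, in CPM per kilobase. Syngr3 was the highest member, at 12.3 ± 1.81 CPM per kilobase in mutant and 12.6 ± 3.62 in wild-type libraries (SD, n = 4 per genotype). Syngr1 came next, at 6.04 ± 0.203 in mutant and 5.24 ± 0.219 in wild-type libraries. Both synaptogyrins stood above every other member in both genotypes. Snap91 was at 2.86 ± 0.240 CPM per kilobase in mutant and 2.78 ± 0.151 in wild-type libraries, and Sv2a at 2.19 ± 0.346 in mutant and 2.95 ± 0.538 in wild-type libraries. These neighbours did not differ beyond their spread in wild-type libraries, while in mutant libraries every value of Snap91 was above every value of Sv2a. Syn3 was at 0.980 ± 0.262 CPM per kilobase in mutant and 1.70 ± 0.308 in wild-type libraries, and Syp at 0.433 ± 0.130 in mutant and 1.42 ± 0.572 in wild-type libraries. Their values overlapped in wild-type libraries and did not overlap in mutant libraries, where Syp was the lower. Syn2, Sv2b, Sv2c and Syn1 averaged at most 0.155 CPM per kilobase in either genotype, with overlapping spreads in wild-type libraries. The values of Syn1, Syn3 and Syp leave out the shared read pairs. Which gene those pairs came from cannot be told apart, so the place of these members in this order is uncertain.

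**Figure D4:**
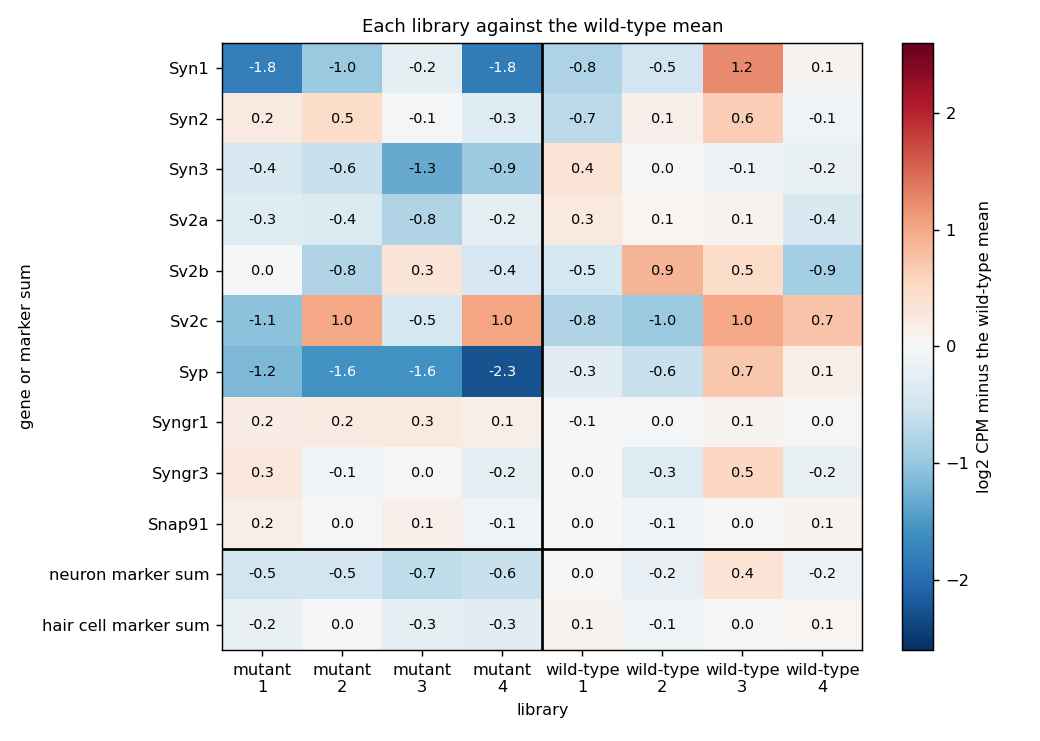
Log2 CPM of each member, and of the summed neuron and hair cell markers, in each library (columns, mutant left of wild-type) minus its mean over the 4 wild-type libraries. Syp, Syn1, Syn3, Sv2a and the neuron marker sum are below that mean in all 4 mutant libraries. The share of all genes with this pattern was not counted. Wild-type replicate 3 holds the highest values of Syp, Syn1, Syn2, Syngr3 and the neuron marker sum.

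With 4 against 4 libraries, the exact test over 10 pairs of related genes could not bring 1 pair alone below an adjusted p of 0.286, so the differences are given by their size. Beside Syp and Sypl, the largest were Syn1 minus Syn2, a log2 difference of -1.29 ± 0.47 (SE, exact permutation p = 0.0571), and Syn2 minus Syn3, at 0.90 ± 0.41 (SE, exact permutation p = 0.0857). Each also had an adjusted p of 0.286 over the 10 pairs in these exact permutation tests. Snap91 minus Picalm was at 0.03 ± 0.18 (SE), and the other 6 pairs had exact permutation p between 0.314 and 0.714.

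Outside the set, the genes whose pattern over the 8 libraries was most like that of Syp were Rundc3a, Sema4a and Crmp1. Likeness was the root mean square difference of log2 CPM centred on each gene's mean, 0.255 for Rundc3a, 0.296 for Sema4a and 0.298 for Crmp1. It takes in the difference of Syp between genotypes and its high value in wild-type replicate 3. The fold changes and tests of these genes were thus largely set by the way they were picked and are given as description. Rundc3a had a log2 fold change of -1.85 ± 0.27 (SE, edgeR adjusted p = 0.0059) and Crmp1 one of -1.28 ± 0.22 (SE, edgeR adjusted p = 0.0200), while Sema4a did not pass (edgeR adjusted p = 0.158). Wild-type replicate 3 was the highest wild-type library for Rundc3a and Crmp1, at 1.61 and 1.71 times the mean of the others. Crmp1 missed the threshold without mutant replicate 1 or 4 (edgeR adjusted p = 0.0559 and 0.0534).

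The members were then set beside the other genes of the vesicle cycle. Of 105 such genes in 5 lists, 95 were tested, 6 fell, 1 rose and 88 did not pass, against the shares of 1.02% lower and 0.147% higher over all genes tested. Lower genes came from docking and fusion, where 4 of 27 tested fell, and from acidification and transmitter filling, where 2 of 15 fell. The median log2 fold changes of these lists were -0.27 and -0.02, beside -0.0027 for all genes tested. By edgeR at an unadjusted p under 0.05, 12 of 27 docking and fusion genes were lower and 0 higher. Of 15 acidification and filling genes, 6 were lower and 0 higher, beside 7.92% lower and 5.46% higher of all genes tested. DESeq2 at its adjusted p had 6 and 2 lower in these 2 lists and 0 higher, where it called 1.91% of 20321 genes lower.

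Snap25, a SNARE protein of the plasma membrane, was at 2.48 ± 0.850 CPM in mutant libraries, against 18.8 ± 7.43 CPM in wild-type libraries (SD, n = 4 per genotype, edgeR adjusted p = 0.0008). Rph3a, an effector of Rab3, was at 0.272 ± 0.287 CPM in mutant libraries, against 6.85 ± 0.956 CPM in wild-type libraries, and the calcium sensor gene Syt2 at 0.796 ± 0.386 CPM in mutant libraries, against 4.43 ± 0.582 CPM in wild-type ones (SD, n = 4 per genotype, edgeR adjusted p = 0.0010 and 0.0033). The fourth lower gene of the list was Rab3b, named after its values were seen, with a log2 fold change of -0.62 ± 0.10 (SE, edgeR adjusted p = 0.0139). The vesicular glutamate transporter genes Slc17a6 and Slc17a8 averaged 0.356 ± 0.293 and 4.06 ± 0.643 CPM in mutant libraries, against 3.85 ± 2.01 and 9.60 ± 2.18 CPM in the wild-type ones (SD, n = 4 per genotype, edgeR adjusted p = 0.0175 and 0.0137). Slc17a8 encodes VGLUT3, the transporter that hair cells use. Slc17a6 missed the threshold without mutant replicate 4 or wild-type replicate 3 (edgeR adjusted p = 0.0518 and 0.0575), and Slc17a8 without wild-type replicate 1 (edgeR adjusted p = 0.0553).

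No gene passed among the 27 of vesicle endocytosis (median log2 fold change 0.04), the 15 tested kinases and phosphatases that act on synapsins (0.02), or the 4 TIMP genes (0.29). At an unadjusted p under 0.05, edgeR had 4 lower and 2 higher in endocytosis, 3 higher among kinases and phosphatases, and 1 higher among TIMP genes, beside the 7.92% lower and 5.46% higher of all genes tested. DESeq2 at its adjusted p had 1 lower in endocytosis and 1 higher among kinases and phosphatases. The highest endocytosis gene, Ap2m1, a subunit of the AP2 adaptor, was at 428 ± 12.2 CPM in mutant libraries, against 412 ± 20.8 CPM in wild-type libraries (SD, n = 4 per genotype). Prkaca, the catalytic subunit of the kinase that phosphorylates synapsins at their common site, was at 293 ± 25.3 CPM in mutant libraries, against 239 ± 3.33 CPM in wild-type libraries (SD, n = 4 per genotype, edgeR adjusted p = 0.107). Of 11 related vesicle membrane proteins tested, 1 rose, Tmem163, which encodes a zinc transporter of synaptic vesicles. It was at 95.4 ± 6.67 CPM in mutant libraries, against 0.655 ± 0.198 CPM in wild-type libraries (SD, n = 4 per genotype, edgeR adjusted p = 1.4e-09).

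**Figure D5:**
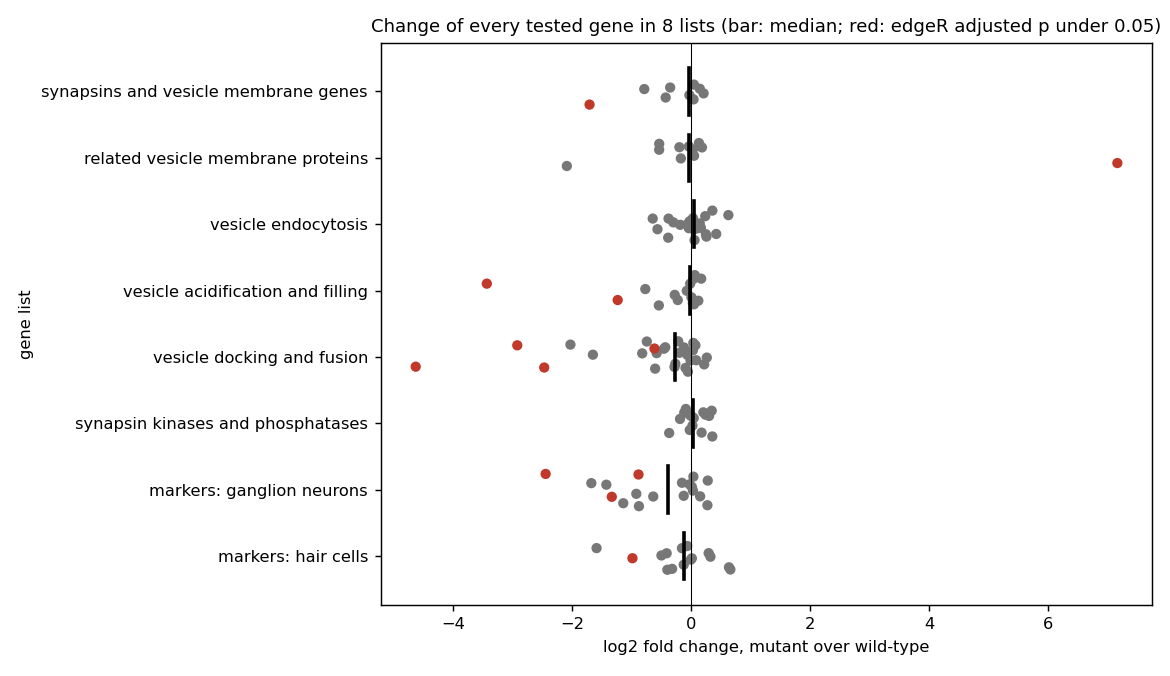
Log2 fold change, mutant over wild-type (x axis), of every gene tested in the member set, 5 other vesicle lists and the neuron and hair cell marker lists (y axis), with a bar at the median of each list. Red points passed the edgeR test. The lower ones are 1 in the member set, 4 in docking and fusion and 2 in acidification and filling. Among the markers, 3 neuron genes and 1 hair cell gene are also lower. The single higher one is in the related vesicle membrane proteins. Of all genes tested, 1.02% were called lower and 0.147% higher.

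Markers of the other cells in the organ moved with Syp in part. Of 18 tested ganglion neuron markers, 3 fell (Nefm, Stmn3 and Nefl) and none rose past the threshold. At that threshold, 1.02% of all genes tested were called lower and 0.147% higher. The log2 fold change was negative for 12 of the 18 markers and positive for 6, with a median of -0.40. At an unadjusted p under 0.05, 7 of them were lower and 0 higher by edgeR, beside 7.92% and 5.46% of all genes tested. The summed level of the whole list was 489 to 559 CPM in mutant libraries, against 676 to 998 CPM in wild-type libraries, where wild-type replicate 3 held the highest sum. No neuron marker was at 0 in all libraries of a genotype. Hair cell markers summed to 731 to 893 CPM in mutant libraries, against 820 to 944 CPM in wild-type libraries, with 1 of 15 lower, Otof, a calcium sensor of the ribbon synapse, at 84.2 ± 9.82 CPM in mutant libraries, against 167 ± 8.80 CPM in wild-type libraries (SD, n = 4 per genotype, edgeR adjusted p = 0.0003). Sums of supporting cell markers were 3851 to 4558 CPM in mutant libraries, against 3740 to 4661 CPM in wild-type libraries, and those of Schwann cell markers 733 to 875 CPM in mutant libraries, against 677 to 786 CPM in wild-type libraries, with no gene of either list past the threshold. At the same unadjusted threshold edgeR had 4 lower and 3 higher of 15 hair cell genes, 1 lower and 1 higher of 14 supporting cell genes, and 2 higher of 9 Schwann cell genes. DESeq2 at its adjusted p had 5 of 18 neuron markers lower and 0 higher, and 2 of 15 hair cell markers lower and 1 higher. It had 0 in the supporting and Schwann cell lists, and called 1.91% of 20321 genes lower and 0.768% higher. The most abundant genes of those lists were Sox9 and Fabp7. Erythroid markers summed to 532 to 833 CPM in mutant libraries, against 514 to 619 CPM in wild-type replicates 1 to 3 and 6800 CPM in wild-type replicate 4. The part of neuron content in the values of Syp and the other members was not tested.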

How the data were processed

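The members, gene lists and tests were chosen with earlier results of these data known. The submitters' processing notes name STAR 2.5.2a, the build GRCm38.p4 and DESeq2, the last without a version. Per the labels' protocols, cDNA was primed with oligo-dT, amplified in 12 cycles and tagmented. The authors deposited whole-number counts of read pairs per gene for each library, and lines that name no gene (25.2% to 33.9% of pairs) were left out here. The unstranded column was used, since the strand columns each held about equal parts, and pairs on exons of 2 genes count for neither. The authors also deposited a normalized signal table of 7 libraries without wild-type replicate 4. In it, 100% of values became whole reads (tolerance 0.001) equal to the counts, and the count test on these called 112 genes lower and 17 higher.

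Genes were kept by filterByExpr (minimum count 10, minimum total 15), scaled by TMM and tested with edgeR 4.0.16 in R 4.3.3, with Benjamini-Hochberg adjustment over all genes and a threshold of 0.05. The test was checked on simulated counts. CPM uses TMM-scaled library sizes, and log2 CPM a prior count of 2. Intervals of 95% use the t distribution of the fit. Permutation tests were exact and two-sided over 70 assignments. Coordinates, exon lengths and overlaps come from GENCODE M21. Alternatives were DESeq2 1.42.0, other scalings and filters, the strand columns, the 7 libraries, a block on replicate number and leaving out each library. The strand columns summed, and the permutation alternatives, were added after seeing the data. Named genes were all members, Rest, nested TIMP genes, relatives of members, up to 3 genes past the threshold (or the most expressed) per list, and the 3 genes nearest to each member that passed. The strain and age labels of wild-type replicate 4 were taken as given.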

Additional observations from a re-analysis of the deposited data

Results flagged for a closer look

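Of 76 groups of 4 libraries examined (members, named genes and marker sums in each genotype), 6 held 1 library far from the other 3 by Dixon's criterion, and chance gives about 1 in 20. None was a member. Rest stood at 131.7 CPM in mutant replicate 1, against 125 to 126 CPM in the other mutant libraries. Timp3 stood at 42.2 CPM in mutant replicate 3, where the others had 25.04 to 26.7 CPM, while Timp4 was at 0.0417 CPM in the same library, where the others had 0.643 to 0.717 CPM. Hbb-bs, a globin gene, stood at 2142 CPM in wild-type replicate 4, where the other 3 had 153 to 185 CPM. The summed erythroid markers of that library were 6800 CPM, against 514 to 619 CPM. The summed supporting cell markers were 4661 CPM in wild-type replicate 1, where the other 3 had 3740 to 3880 CPM. The causes were not tested.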

How the results depend on the processing

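The number of members called lower, 1 as reported, was 2 with DESeq2 (Syp and Syn3) and 0 with the authors' 7 libraries, with a replicate block, and 0 to 1 when 1 library was left out. No member was called higher under any of these alternatives. Over all genes, 388 were lower and 156 higher with DESeq2, 112 lower with the authors' 7 libraries, and 105 to 140 lower and 12 to 28 higher when 1 library was left out. Of the listed vesicle and TIMP genes, 10 were lower and 2 higher with DESeq2. Same-numbered libraries showed no shared deviation from their genotype means (correlations -0.10 to 0.03 over 4 pairs). So few pairs cannot exclude a pairing by number, and the labels give no litter. The replicate block gave 80 genes lower and 16 higher, 3 listed genes lower, and adjusted p of 0.0931 for Syp and 0.0600 for Syn3 (edgeR).

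Syp kept a negative log2 fold change in all 18 alternatives and its call in 11, and Syn3, Sv2a, Syngr1 and Snap91 kept their signs in all 18. Syn2 turned to -0.0175 without scaling factors and to -0.0239 with the authors' 7 libraries. When 1 library was left out, the log2 fold change ranged from -0.15 to 0.32 for Syn2, -0.60 to 0.0158 for Sv2b, -0.18 to 0.57 for Sv2c and -0.13 to 0.18 for Syngr3. The paired differences then ranged from -0.90 to 0.26 for Sv2b minus Sv2c, -0.47 to 0.11 for Sv2a minus Sv2b, -0.11 to 0.15 for Snap91 minus Picalm, -0.26 to 0.0866 for Syngr3 minus Syngr2 and -0.88 to 0.0610 for Syn1 minus Syn3. The CPM difference, mutant minus wild-type, of Syn3 was -8.86, -14.2 and -11.2 in the first, second and summed strand columns (exact permutation p = 0.314, 0.114 and 0.200), and -9.95 to -6.94 when 1 library was left out. That of Syn1 was -0.720, -0.546 and -0.626 in the first, second and summed strand columns (exact permutation p = 0.0571, 0.0286 and 0.0571). These columns hold the pairs shared with Araf, whose part was not tested. The CPM difference of Syp was -6.04 to -3.78 when 1 library was left out. The causes were not tested. Syn1 had too few counts to be tested, and Syn2, Sv2b and Sv2c had the widest intervals of the members tested.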
